A study of Mus musculus with 6 samples.

Results

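The 10 genes described here encode the receptors, co-receptors and first signalling proteins by which innate immune cells sense bacterial endotoxin and other microbial molecules: Cd14, Ly96, Tlr4, Tlr2, Tlr3, Tlr7, Tlr13, Myd88, Ticam1 and Irak3. They were taken by symbol from a named list, and all 10 were found among the 35049 genes of the captured samples and the 37991 genes of the punched samples. RNA came from the substantia nigra pars compacta, the mouse midbrain region that holds dopaminergic neurons, in 6 samples that form 6 groups of 1 sample and 3 pairs. The question behind the pairs is how the homeoprotein Engrailed acts on these neurons.

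The first pair set En1+/- mice, which have 1 intact copy of Engrailed 1, against wild type mice, both at 6 weeks. In the second, wild type mice of 8 weeks had been infused with Engrailed 2 protein (En2) on 1 side by an osmotic pump for 7 days, and the infused side was set against the contralateral one. In these 4 captured samples, neurons stained for tyrosine hydroxylase were cut out with a laser. The third pair came from wild type mice of 8 weeks that had all been injected with 6-hydroxydopamine (6-OHDA), a toxin that dopaminergic neurons take up. After 30 min the 6-OHDA then En2 group received 2 µl with 300 ng of En2 (4 µM), made as a recombinant protein in bacteria, together with 3 µg of colominic acid, while the 6-OHDA group received a NaCl vehicle by the shared protocol. Here 1 mm of tissue was punched out of each 2 mm frozen slice. En2, colominic acid and any other content of the injected solution cannot be told apart in the third pair, nor can the protein and the pump itself in the second, where the labels name no infusion on the contralateral side. The labels name no number of animals per sample, and no punched tissue free of 6-OHDA was analysed here.

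Toll-like receptors recognise molecules that microbes share. Lipopolysaccharide, the endotoxin of bacterial outer membranes, is handed by the binding protein CD14 to the receptor made of TLR4 and its partner MD-2, the product of Ly96. TLR2 recognises bacterial lipoproteins at the cell surface, while TLR3 recognises double-stranded RNA, TLR7 single-stranded RNA and TLR13 bacterial ribosomal RNA inside endosomes. MyD88 is the adaptor of all of these receptors except TLR3 and leads to NF-κB and inflammatory cytokines. TRIF, the product of Ticam1, serves TLR3 and endosomal TLR4 and leads to interferon and interferon-induced genes. IRAK-M, the product of Irak3, is an inhibitory kinase-like protein that dampens the MyD88 arm. In the brain, microglia are the main cells that carry Toll-like receptors, and astrocytes and infiltrating blood cells can carry some of them.

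Sequence upstream of a RefSeq start is given for 4 of the 10 genes. Tlr2, Tlr3 and Myd88 were higher after En2 in the punches and hold a match to a motif described below. Tlr13 was lower there. Irak3 was also higher there but held no match and is not printed. The printed genes therefore cannot show whether matches go with direction, which was not tested. The RefSeq table of promoters (GRCm38.p6) held 6 of the 10 genes, Irak3 with more than 1 start. The 250 bases before each start were searched on both strands for 3 motifs that do not overlap one another in any match below. The kappa B motif was GGGA, then any pair of bases, T, any base and CC. The interferon-stimulated response element was GAAA, any pair of bases and GAAA, and the PU.1 motif was GAGGAAGT. Of all 32851 promoters in the table, 3.33% held the first, 2.98% the second and 2.44% the third. The stretches below read 5′ to 3′ along each gene, with matches in capitals. For Tlr2, Myd88 and Tlr13 the stretch lies outside every exon of the GENCODE M21 annotation. That annotation places the 5′ ends of these genes further upstream than RefSeq does. The Tlr2 and Tlr13 stretches lie outside their own annotated genes, whereas the Myd88 stretch lies within the annotated Myd88 gene, between its exons. For Tlr3 the stretch is 30 bases around a match that lies in an annotated exon. The stretches lie at chr3:83841768-83841858 (minus strand), chr8:45410572-45410601 (minus strand), chr9:119340042-119340268 (minus strand) and chrX:106143025-106143203 (plus strand).
Tlr2: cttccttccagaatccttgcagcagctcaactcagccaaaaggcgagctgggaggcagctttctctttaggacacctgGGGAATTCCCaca
Tlr3: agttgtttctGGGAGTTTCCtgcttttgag
Myd88: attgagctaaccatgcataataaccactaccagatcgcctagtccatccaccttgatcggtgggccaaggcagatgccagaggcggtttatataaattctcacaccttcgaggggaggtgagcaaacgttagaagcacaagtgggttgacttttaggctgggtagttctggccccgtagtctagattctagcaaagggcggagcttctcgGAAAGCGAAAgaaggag
Tlr13: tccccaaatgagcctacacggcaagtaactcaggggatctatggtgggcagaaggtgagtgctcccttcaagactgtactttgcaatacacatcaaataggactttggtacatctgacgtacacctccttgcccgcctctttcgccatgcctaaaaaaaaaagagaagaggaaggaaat

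Tlr2 holds a palindromic kappa B match, GGGAATTCCC, from 172 to 163 bases before its RefSeq start, and Tlr3 holds another, GGGAGTTTCC, from 211 to 202 bases before its own. Myd88 holds an interferon-stimulated response element, GAAAGCGAAA, from 40 to 31 bases before its start. Tlr13, Ticam1 and both Irak3 promoters held no match to any of the motifs in these windows. A match is a run of letters and not a site shown to be bound.

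With 1 sample per group, nothing here has a replicate check or a test, and every interval in parentheses is an exact 95% interval that covers counting error only. Totals ran between 15927206 and 21332308 reads, but outside mitochondrial and ribosomal RNA genes the captured samples held between 1510173 and 3272399 reads, against 19044604 and 15927153 in the 6-OHDA then En2 and the 6-OHDA punches. A count of 0 allows up to 3 reads, which is 0.917 to 1.99 reads per 1000000 (CPM) in the captured samples. A gene counted as measured in a pair when 1 of its 2 libraries had at least 20 reads. It is called higher or lower when its log2 ratio after scaling was at least 1 in size with an interval that excluded 0, named the rule of size below. It called 34.3% of 11500 measured genes different in the En1+/- pair, 37.7% of 11361 in the infusion pair and 5.89% of 15747 in the punched pair. En1 itself had 47 reads in the En1+/- library and 77 in the wild type library, a log2 ratio of -1.70 (-2.27 to -1.17). Markers of dopaminergic neurons summed to 7520 CPM in En1+/-, 8651 in wild type, 9647 on the infused side and 8804 on the contralateral side, and to 586 CPM after 6-OHDA then En2 and 437 after 6-OHDA. Oligodendrocyte markers summed to more than that in all 6 samples, 18195 to 30833 CPM, so neither kind of sample holds neurons alone.

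The genes were scarce in the captured samples and better covered in the punches. With at least 20 reads there were 2 of the 10 in En1+/-, 1 in wild type, 6 on the infused side, 1 on the contralateral side and 9 in each punched library. The 10 genes summed to 37.0 CPM in En1+/- and 34.4 CPM in wild type, to 141 CPM on the infused side and 47.7 CPM on the contralateral side, and to 609 CPM after 6-OHDA then En2 and 162 CPM after 6-OHDA. The sum thus differed little in the first pair and was several times larger in the library given En2 protein in the other pairs. Captured samples were counted per transcript and punches per gene, so no ratio was formed between them.

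**Figure D1:**
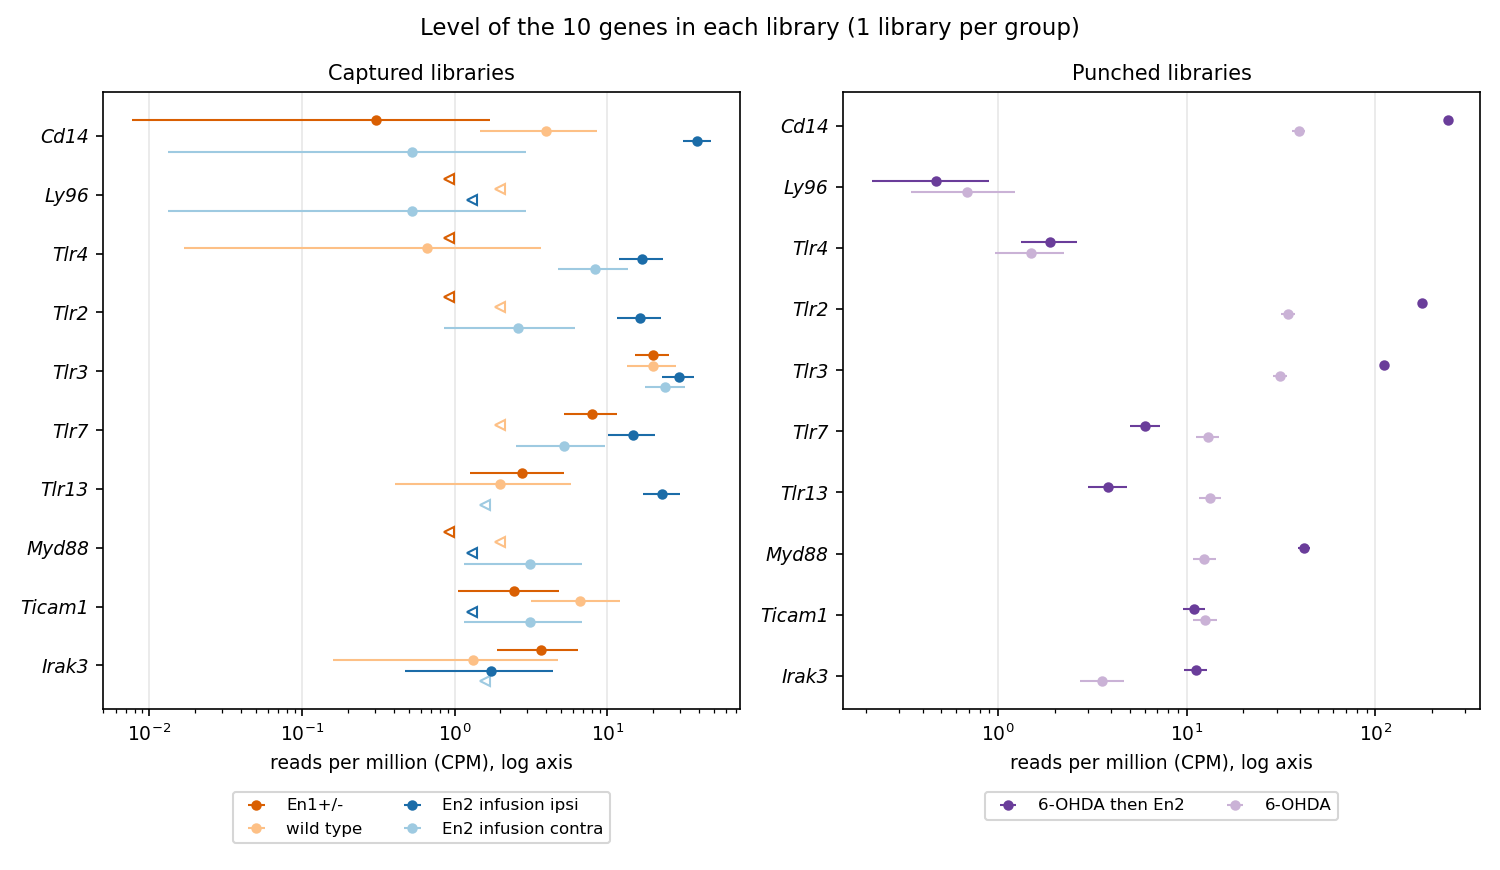
Level of each of the 10 genes in every library, in CPM on a log axis, with exact 95% counting intervals, for the captured (left) and punched (right) libraries; open triangles mark 0 reads and are drawn at the level of 3 reads. Cd14 stood at 39.0 CPM on the infused side and at 244 CPM after 6-OHDA then En2, while Tlr3 lay between 19.9 and 29.5 CPM in all 4 captured libraries.

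Compared per length, in RPKM, which divides CPM by length in kilobases, the order of the genes differed between samples. After 6-OHDA then En2, Cd14 led with 141 RPKM, followed by Tlr2 with 58.5, Tlr3 with 21.4 and Myd88 with 16.3, each apart from the next beyond its counting interval. Then came Ticam1 with 3.67, Irak3 with 3.04, Tlr7 with 1.48, Tlr13 with 0.891, Ly96 with 0.463 and Tlr4 with 0.340 RPKM, where Ticam1 and Irak3 overlapped, as did Tlr13 with Ly96 and Ly96 with Tlr4. After 6-OHDA, Cd14 led with 22.7 RPKM and Tlr2 followed with 11.4. Tlr3 stood at 6.02, Myd88 at 4.83, Ticam1 at 4.20, Tlr7 at 3.18 and Tlr13 at 3.09 RPKM, each overlapping its neighbour, above Irak3 with 0.974, Ly96 with 0.676 and Tlr4 with 0.271, which overlapped in turn. The endotoxin receptor chain Tlr4 and its partner Ly96 were thus at the foot of both lists while Cd14 was at the top. In the captured samples Tlr3 led in En1+/- and in wild type, at 4.51 RPKM each, and on the contralateral side at 5.47, although in wild type it overlapped the next gene, Cd14, with 2.42. On the infused side Cd14 led with 23.8 RPKM, above Tlr3 with 6.68, Tlr13 with 5.65, Tlr2 with 5.46, Tlr4 with 4.14 and Tlr7 with 3.90, and these 5 overlapped their neighbours.

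After 6-OHDA, the library that had received En2 carried far more Cd14, Tlr2, Tlr3, Myd88 and Irak3 and less Tlr7 and Tlr13. Of the 9 measured genes, 5 were higher and 2 lower by the rule of size, against 4.66% higher and 1.23% lower of all measured genes, and their median log2 ratio was 1.66 against 0.01 for all. Each of the 9 had at least 20 reads in both punched libraries. The remaining gene, Ly96, had 9 reads after 6-OHDA then En2 and 11 after 6-OHDA, too few for the rule.

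Among the endotoxin receptor genes, Cd14 (ENSMUSG00000051439, on chromosome 18) had 4651 reads after 6-OHDA then En2 and 625 after 6-OHDA. It was 6.33-fold higher (5.82 to 6.89), a log2 ratio of 2.66. Tlr4 (ENSMUSG00000039005; GRCm38 chromosome 4, 66827584 to 66930284, plus strand) had 36 and 24 reads in the same order, a log2 ratio of 0.35 (-0.43 to 1.16) that did not reach the rule of size. The interval runs from lower to higher, so at this depth no difference in the receptor chain was detectable, whereas its co-receptor Cd14 lay far outside it. Of 7 further genes of lipopolysaccharide binding and receptor folding, 6 were measured and 1 was higher, the binding protein gene Lbp, with 79 reads after 6-OHDA then En2 and 31 after 6-OHDA (log2 ratio 1.10, 0.50 to 1.76). Cd180 and Ly86, which encode a receptor related to TLR4 and its partner, had log2 ratios of -0.61 and -0.67, and the chaperone gene Hsp90b1 one of -0.08, all under the rule.

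The receptors of other ligands split. Tlr2 (ENSMUSG00000027995; chromosome 3, 83836272 to 83841767, minus strand), whose kappa B match is printed above, had 3359 reads after 6-OHDA then En2 and 549 after 6-OHDA. It was 5.20-fold higher (4.75 to 5.71). Tlr3 (ENSMUSG00000031639; chromosome 8, 45395665 to 45411080, minus strand) had 2127 reads after 6-OHDA then En2 and 499 after 6-OHDA and was 3.62-fold higher (3.29 to 4.00). An annotated gene, Gm45542, overlaps Tlr3, and since the strand of counting is not stated, reads from the overlap cannot be assigned. Both members on the X chromosome went the other way. Tlr13 (ENSMUSG00000033777; chromosome X, 106143204 to 106160493, plus strand), with no match in its printed sequence, had 73 reads after 6-OHDA then En2 and 212 after 6-OHDA, 3.40-fold lower with a log2 ratio of -1.76 (-2.18 to -1.38). Tlr7 (ENSMUSG00000044583; chromosome X, 167304929 to 167330558, minus strand) had 115 reads after 6-OHDA then En2 and 207 after 6-OHDA, 2.11-fold lower with a log2 ratio of -1.08 (-1.42 to -0.75). Its interval reaches below the size that the rule asks for. Of the 7 other Toll-like receptor genes, 4 were measured and none was higher or lower. Tlr1, whose product pairs with TLR2, had 238 reads after 6-OHDA then En2 and 162 after 6-OHDA (log2 ratio 0.32, 0.03 to 0.62), and Tlr6, which encodes its other partner, had 94 and 44 in the same order (0.85, 0.33 to 1.41).

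The adaptors differed too. Myd88 (ENSMUSG00000032508; chromosome 9, 119335934 to 119341411, minus strand) had 798 reads after 6-OHDA then En2 and 198 after 6-OHDA, 3.42-fold higher (2.93 to 4.03). Ticam1 (ENSMUSG00000047123; chromosome 17, 56269319 to 56276786, minus strand) had 209 and 200 reads in the same order, a log2 ratio of -0.17 (-0.46 to 0.12), an interval that lies within the rule of size on both sides. Acaa1a and Slc22a14 overlap Myd88 in the annotation, with the same limit on strand as for Tlr3. Irak3 (ENSMUSG00000020227; chromosome 10, 120141648 to 120202130, minus strand), which Gm47009 and Tmbim4 overlap, had 213 reads after 6-OHDA then En2 and 57 after 6-OHDA, 3.16-fold higher (2.36 to 4.34). Of 20 other adaptors and kinases of the pathway, 19 were measured. Their median log2 ratio was 0.10, and 2 were higher and none lower. The higher genes were Ikbke, an interferon-pathway kinase gene, at 2.15 (1.64 to 2.73), and Ripk1, a kinase gene downstream of TRIF, at 1.14 (0.83 to 1.45). The kinase gene Irak2 stood at 0.90 (0.77 to 1.03), Irak4 at -0.29 and the ubiquitin ligase gene Traf6 at -0.20.

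**Figure D2:**
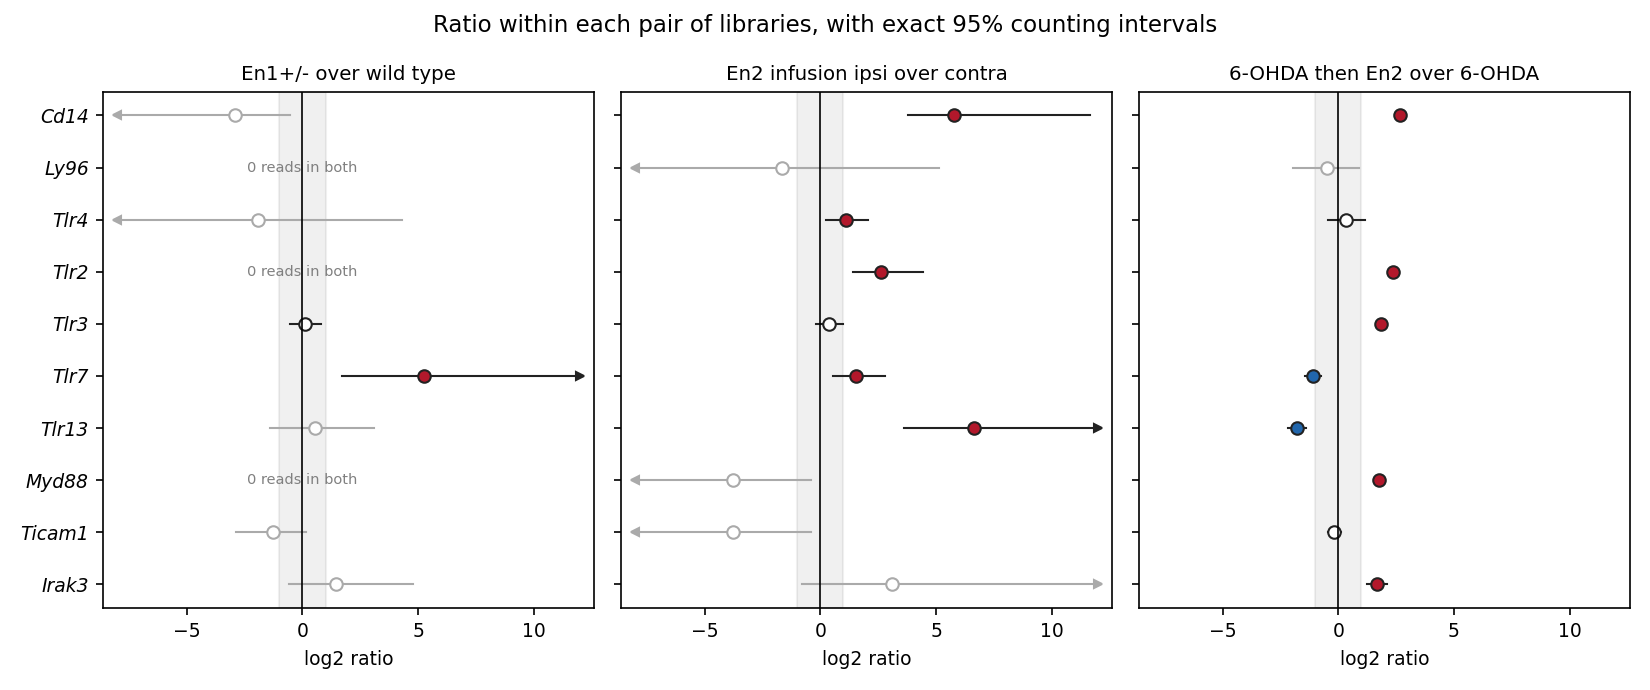
Log2 ratio of each of the 10 genes in the 3 pairs, the first-named library over the second, with exact 95% counting intervals; filled red points are higher and filled blue points lower by the rule of size, grey points had fewer than 20 reads in both libraries, arrows mark intervals that run on, and the grey band spans -1 to 1. In the punched pair Cd14, Tlr2, Tlr3, Myd88 and Irak3 lie between 1.66 and 2.66, and Tlr7 and Tlr13 lie at -1.08 and -1.76.

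Listed targets of these pathways were higher in the same library, as were 9 of 14 measured feedback inhibitors. Of all measured genes 4.66% were higher and 1.23% lower. The lists were chosen with earlier results of these data known, so their counts carry no support of their own. The arms are named by the lists, and the activity of the MyD88 or TRIF arm was not tested in any pair. Of 14 NF-κB-dependent targets of the MyD88 arm, 14 were measured and 14 were higher, with a median log2 ratio of 4.50 and values from 2.38 for Nfkbiz to 6.33 for Il1b. Il1b, which encodes interleukin 1 beta, had 2213 reads after 6-OHDA then En2 and 23 after 6-OHDA. Of 10 interferon-induced targets of the TRIF arm, 9 were measured and 9 were higher, with a median of 5.11. The chemokine gene Ccl5 had 1329 reads after 6-OHDA then En2 and 17 after 6-OHDA, a log2 ratio of 6.02 (5.37 to 6.84), and Irf1 was the lowest at 3.43. The TRIF gene itself, Ticam1, stood near its 6-OHDA level, while Tlr4 and Ly96 were not called higher or lower either. Of 15 feedback inhibitors, 14 were measured. Their median was 1.74, and 9 were higher and none lower. Tnfaip3, which encodes the deubiquitinase A20, had 4566 reads after 6-OHDA then En2 and 208 after 6-OHDA (4.22, 4.02 to 4.43). Tnip3, which encodes a partner of A20, had 494 reads and 1 read in the same order, 8.17 (6.23 to 14.02). The inhibitor genes Tollip and Sigirr stood at -0.09 and -0.36. Of these genes 1 MyD88 target, 2 TRIF targets and 2 inhibitors entered through the library given En2 alone, since they had under 20 reads after 6-OHDA, and could then differ in that direction only.

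Markers of some other cells also differed in the punched pair. Microglia markers summed to 159 CPM after 6-OHDA then En2 and 320 CPM after 6-OHDA, and of the 16 measured 8 were lower and none higher (median -0.90), with the defining genes Tmem119 at -3.07, Cx3cr1 at -2.63 and P2ry12 at -2.08. Neutrophil markers summed to 105 CPM after 6-OHDA then En2 and 9.23 CPM after 6-OHDA, and 7 of 7 measured were higher, 5 of them entering through the library given En2 alone. S100a8 had 257 reads and 0 reads in the same order, which makes at least 72.9-fold higher with the floor of 3 reads. Ly6g had 2 reads and 0 reads. Monocyte and macrophage markers summed to 73.4 and 80.0 CPM in the same order. Of the 6 measured, the monocyte gene Ccr2 alone passed the rule, at 2.54 (1.17 to 4.64) on 30 reads and 4 reads. The other 5 stayed under it, from -0.95 for Cd163 to 0.65 for F13a1, and the list median was 0.08. Ccr2 entered through the library given En2 alone and Cd163 through the 6-OHDA library alone. Astrocyte markers summed to 6436 and 5247 CPM, with none of 8 past the rule, and endothelial markers to 241 and 300 CPM, with 2 of 8 lower. In these bulk samples, fewer cells of a type and less RNA per cell cannot be told apart. Set against the reads of the 16 microglia markers, Cd14 had 1532 reads per 1000 such reads after 6-OHDA then En2 and 123 after 6-OHDA. Tlr2 had 1107 and 108 per 1000 in the same order, Tlr3 701 and 97.8, Tlr13 24.1 and 41.6, and Tlr7 37.9 and 40.6. Relative to the microglia markers, Tlr7 thus stood near its 6-OHDA level, Tlr13 lower and the first 3 genes far higher. The part of microglia, neutrophils and monocytes in these ratios was not tested.

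**Figure D3:**
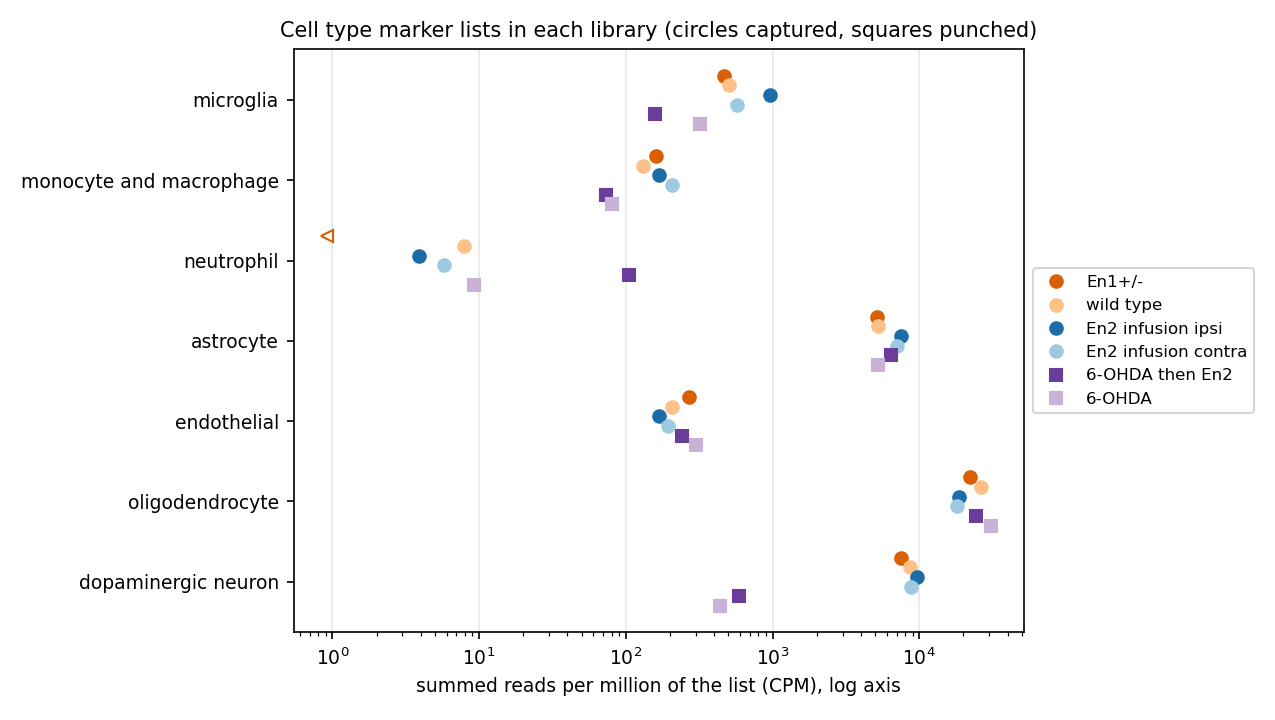
Summed CPM (log axis) of 7 lists of cell type markers in each library, with circles for captured and squares for punched libraries; the open triangle marks a sum of 0 reads, drawn at the level of 3 reads. The microglia sum is 159 CPM after 6-OHDA then En2 and 320 CPM after 6-OHDA, the neutrophil sum 105 and 9.23 CPM, and on the infused side the microglia sum is 956 CPM against 574 CPM on the contralateral side.

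In the authors' deposited table, made without replicates, the adjusted p in the punched pair was 4.34e-34 for Cd14, 2.10e-25 for Tlr2, 9.22e-14 for Tlr3, 2.78e-07 for Myd88, 0.00845 for Tlr13 and 0.0391 for Irak3. In the same authors' deposited table it was 0.419 for Tlr7 and 1 for Tlr4, Ly96 and Ticam1. Over all genes of that deposited table, 465 were higher and 39 lower at an adjusted p under 0.05.

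On the side infused with En2, Cd14, Tlr2, Tlr4, Tlr7 and Tlr13 had more reads than on the contralateral side, on small counts. Of the 6 measured genes 5 were higher and none lower by the rule of size, against 20.7% higher and 17.0% lower of all measured genes, with a median of 2.10 against 0.08. Tlr3 alone had at least 20 reads on the contralateral side. The other 5 passed the minimum through the infused side only, so they could differ in no other direction, and their count carries no support of its own.

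Cd14 had 90 reads on the infused side and 1 on the contralateral side, a log2 ratio of 5.77 (3.80 to 11.64), or 54.6-fold with an interval from 14.0 to 3189. In the first pair Cd14 had 1 read in En1+/- and 6 in wild type, so the infused side was the 1 captured library with more than a few. Tlr4 had 39 reads on the infused side and 16 on the contralateral side, a log2 ratio of 1.09 (0.24 to 2.05). This value rests on the longest of its 4 transcripts. Reads of the 2 short transcripts that were seen on both sides ran the other way, with 1 and 1 on the infused side and 7 and 3 on the contralateral side. Summed over transcripts, Tlr4 stood at 0.49, under the rule of size. Ly96 had 0 reads on the infused side and 1 on the contralateral side. Among the related genes, 3 of 5 measured were higher and none lower, and 2 of the 3, Unc93b1 and Cd180, passed the minimum through the infused side alone and could not have been lower. Unc93b1, which encodes the chaperone that carries endosomal Toll-like receptors, had 109 reads on the infused side and 7 on the contralateral side (3.70, 2.70 to 5.14). Cd180 had 50 and 8 in the same order (2.40, 1.38 to 3.76), and Ly86 74 and 27 (1.27, 0.63 to 1.98).

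Tlr2 had 38 reads on the infused side and 5 on the contralateral side, a log2 ratio of 2.64 (1.41 to 4.46). Tlr13 had 53 reads on the infused side and 0 on the contralateral side, which makes at least 15.7-fold higher with the floor of 3 reads. Tlr7 had 34 reads on the infused side and 10 on the contralateral side, 1.55 (0.54 to 2.78), with the same counts for 3 of its transcripts. Tlr7 and Tlr13 were thus higher here and lower in the punched pair, a difference that was not tested. Tlr3 had 68 reads on the infused side and 46 on the contralateral side, 0.39 (-0.17 to 0.96), an interval that stays under the rule of size. None of the 7 other Toll-like receptor genes reached 20 reads on either side.

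The adaptor genes among the 10 were hardly seen in this pair. Myd88 and Ticam1 each had 0 reads on the infused side and 6 on the contralateral side, at least 2.25-fold lower against the floor but under the minimum of 20 reads. A shorter Myd88 transcript had 4 reads on the infused side and 1 on the contralateral side. Irak3 had 4 reads and 0 reads in the same order. In the list of other adaptors and kinases, 19 genes were in the table, 16 were measured. Their median was 0.04, and 2 were higher and 7 lower. Ticam2, which encodes TRAM, the bridge between TLR4 and TRIF, had 53 reads on the infused side and 2 on the contralateral side (4.26, 2.63 to 7.64), and Ripk1 had 62 and 14 in the same order (1.94, 1.12 to 2.93). Both passed the minimum through the infused side alone. The ubiquitin ligase gene Traf3 had 52 reads on the infused side and 162 on the contralateral side (-1.80, -2.29 to -1.35), and Tab1, whose product binds the kinase TAK1, had 13 and 47 in the same order (-1.98, -3.04 to -1.12), so that Tab1 passed the minimum through the contralateral side alone. Of the MyD88 targets 3 of 14 were measured, Acod1 with 41, Il1b with 30 and Ccl3 with 21 reads on the infused side, each with 0 on the contralateral side. Acod1, which encodes the enzyme that makes itaconate, was at least 12.1-fold higher, Il1b at least 8.87-fold and the chemokine gene Ccl3 at least 6.21-fold. Of the TRIF targets 1 was measured, Ccl5, with 27 reads on the infused side and 2 on the contralateral side. All 4 entered through the infused side alone. Of the feedback inhibitors 6 were measured, 1 was higher, Sarm1 at 2.06, and 1 lower, the phosphatase gene Dusp1 at -2.07, which passed the minimum through the contralateral side alone.

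**Figure D4:**
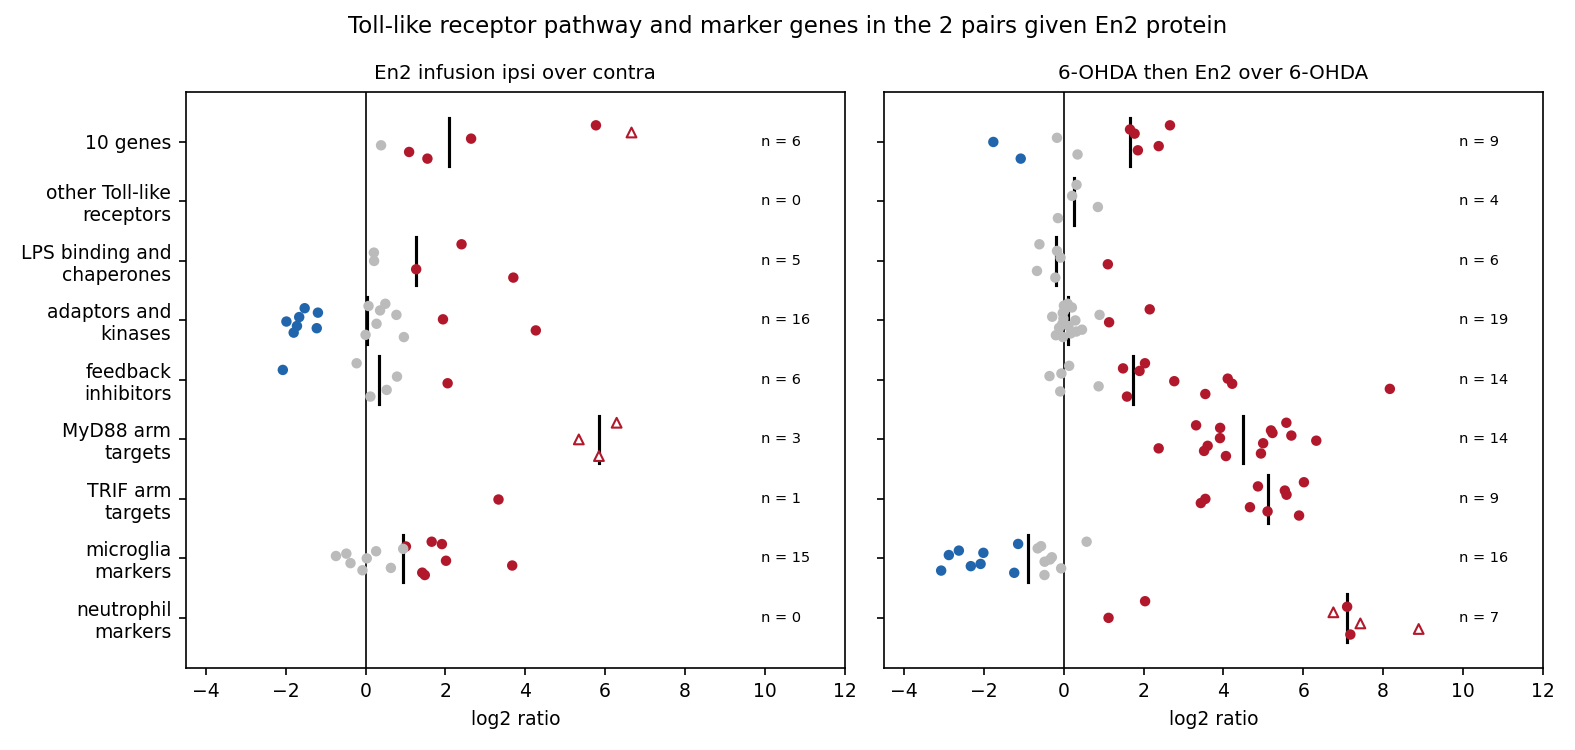
Log2 ratio of each measured gene in 9 lists for the infusion pair (left) and the punched pair (right), the library given En2 protein over the other, with red for higher and blue for lower by the rule of size, grey for neither, open triangles for genes with 0 reads in 1 library, whose plotted value depends on the 0.5 reads added, and black bars for list medians. In the punched pair the medians are 4.50 for the MyD88 targets, 5.11 for the TRIF targets, 0.10 for the adaptors and kinases and -0.90 for the microglia markers.

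Several markers of microglia, 2 of monocytes and macrophages, and Gfap among those of astrocytes were also higher on the infused side. The microglia sum was 956 CPM on the infused side and 574 CPM on the contralateral side, and 7 of 15 measured were higher and none lower (median 0.94), 3 of the 15 having passed the minimum through the infused side alone. The complement gene C1qa stood at 1.91 and the integrin gene Itgam at 2.02, while the defining markers Tmem119, P2ry12 and Cx3cr1 stood at -0.08, -0.38 and 0.26. Of the monocyte and macrophage markers 4 were measured, 2 were higher and none lower, both through the infused side alone, with a median of 2.98, or 1.62 with genes at 0 set to their bound. The macrophage gene Ms4a7 had 89 reads on the infused side and 0 on the contralateral side, at least 26.3-fold higher, and the monocyte gene Ccr2 had 22 and 0 in the same order, while Ly6c2 was at 0 on both. The list summed to 168 CPM on the infused side and 207 CPM on the contralateral side, within which Vcan had 189 and 330 reads in the same order. Gfap, the intermediate filament gene of astrocytes and the 1 gene past the rule among 8 astrocyte markers, had 1092 reads on the infused side and 155 on the contralateral side (2.64, 2.40 to 2.90). Neutrophil markers summed to 3.90 CPM on the infused side and 5.76 CPM on the contralateral side, with S100a8 at 0 on both. Per 1000 microglia marker reads, Cd14 had 40.8 reads on the infused side and 0.913 on the contralateral side, Tlr2 had 17.2 and 4.57 in the same order, and Tlr13 24.0 and 0. Tlr7 had 15.4 and 9.13, Tlr4 17.7 and 14.6 and Tlr3 30.8 and 42.0. Set against the summed list Tlr4 thus differed little between the sides. Its log2 ratio of 1.09, or 0.49 summed over transcripts, stood above those of Tmem119, P2ry12 and Cx3cr1 and below those of Itgam and C1qa. The part of microglia, monocytes and astrocytes in the infusion values was not tested. In the authors' deposited table for this pair Cd14 had a p of 0.00338 and an adjusted p of 0.670, and each other member listed there had an adjusted p of 1.

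In En1+/- against wild type, 2 of the 10 genes were measured. Tlr3 had 65 reads in En1+/- and 30 in wild type, a log2 ratio of 0.11 (-0.53 to 0.79). Tlr7 had 26 reads in En1+/- and 0 in wild type, at least 4.33-fold higher against the floor, and it passed the minimum through the En1+/- library only. Over all genes measured in this pair 20.2% were higher and 14.2% lower by the same rule. Tlr7 also had reads in the infusion pair, 34 on the infused side and 10 on the contralateral side, so wild type was the 1 captured library in which it was at 0, at a depth where 3 reads are 1.99 CPM. Irak3 had 12 reads in En1+/- and 2 in wild type, Tlr13 had 9 and 3, Ticam1 8 and 10 and Tlr4 0 and 1 in the same order. Tlr2, Ly96 and Myd88 had 0 reads in both.

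Among the other Toll-like receptor genes of this pair, Tlr1 had 45 reads in En1+/- and 4 in wild type (2.39, 1.04 to 4.43) and Tlr8, whose product is an RNA receptor related to TLR7, had 25 and 0, at least 4.17-fold higher. Both entered through the En1+/- library alone. Of the lipopolysaccharide binding and folding genes 5 were measured, 3 were higher and 1 lower, and 2 of the higher ones, Lbp and Cd36, passed the minimum through En1+/- alone. Lbp had 41 reads in En1+/- and 0 in wild type, at least 6.83-fold higher, and Ly86 had 27 and 30 in the same order (-1.13, -1.96 to -0.35). Of the adaptors and kinases 15 were measured, 2 were higher and 3 lower (median -0.55), with Traf6 at 2.09 (1.73 to 2.50) on 549 and 64 reads and the ubiquitin-conjugating enzyme gene Ube2n at -2.34 (-2.93 to -1.82). Of the feedback inhibitors 7 were measured, 2 were higher and 1 lower, with Tnfaip3 at 2.49 (0.97 to 4.97) on 37 and 3 reads and Sarm1 at 1.07 on 72 and 17, both of which passed the minimum through En1+/- alone. No MyD88 target reached 20 reads in either library, and the 1 measured TRIF target, Ifit2, had 21 reads in each (-0.98, -1.94 to -0.06). Microglia markers summed to 465 CPM in En1+/- and 503 CPM in wild type, with 3 of 13 higher and 3 lower, where 3 of the 13 passed the minimum through En1+/- alone and 1 through wild type alone, and no neutrophil marker reached 20 reads. Tmem119 stood at 1.60, Cx3cr1 at -1.31 and P2ry12 at -1.18, and the part of microglia in the Tlr7 value was not tested. The authors' deposited table for this pair gave an adjusted p of 1 for each member it lists.

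The contralateral side and the wild type library were also set side by side, since they share En1 genotype but not age or treatment. The rule of size called 27.5% of 10742 genes different between them. Tlr3 was the 1 measured member, with 46 reads on the contralateral side and 30 in wild type (0.31, -0.38 to 1.03). Tlr4 had 16 reads and 1 read in the same order, Tlr7 10 and 0, Tlr2 5 and 0, Myd88 6 and 0, Ticam1 6 and 10, and Cd14 1 and 6. The contralateral side is the library that the infused side is set against, so these values and those of the infusion pair share it.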

How the data were processed

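The study sequenced RNA from 4 captured and 2 punched samples of mouse substantia nigra. The build mm10 and the tools HTSeq, Bowtie and DESeq 1.8.3 are listed in the submitters' processing notes, without roles; a column header of the punched comparison table names mm9. For the captured samples the authors deposited counts per transcript (95533 transcripts), and for the punches counts per gene. The authors' deposited comparison tables also hold p-values made without replicates and fold changes, as a ratio in all of them and also as log2 values in the captured tables. Their 6 columns of means were not used. For the infusion pair En1 stands in the names of the tables where the labels have En2, and the labels were followed.

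Genes were matched by Ensembl identifier. Each captured gene was represented by its most-read transcript, judged on the summed reads of the 4 captured libraries. The 9402 transcripts with no gene identifier (2.93% to 4.78% of counts) were left out, and 4 punched counts shifted by 1 column were moved back. In the punches 39.6% and 42.6% of alignments processed for 6-OHDA then En2 and for 6-OHDA were not aligned. Within a pair, median-of-ratios scaling was applied, 0.5 reads were added, and log2 ratios were formed with exact intervals from the Clopper-Pearson method, applied to how a gene's reads divide between both libraries. CPM is per 1000000 reads outside mitochondrial and ribosomal RNA genes; RPKM divides by the transcript length (captured) or the merged exon length (punched) in GENCODE M21. Python 3.11.15, numpy 2.4.6, scipy 1.17.1, pandas 2.3.3, R 4.3.3 and edgeR 4.0.16 (TMM factors only) were used, and the steps were tested on simulated data.

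The 10 genes and the other 13 lists (143 genes) were chosen with earlier results of these data known. Named genes are the 10 genes, up to 3 with the highest and 2 with the lowest log2 ratio of each list and pair, En1 and defining markers; not all of them are printed.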

Additional observations from a re-analysis of the deposited data

Results flagged for a closer look

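Tlr7 went in opposite directions in the infusion pair and the punched pair. Its log2 ratio was 1.55 for the infused side over the contralateral side (34 and 10 reads) and -1.08 for 6-OHDA then En2 over 6-OHDA (115 and 207 reads).

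Tlr13 did so too. Its fitted log2 ratio was 6.66 for the infused side over the contralateral side, on 53 and 0 reads, a value that depends on the 0.5 reads added, and -1.76 for 6-OHDA then En2 over 6-OHDA (73 and 212 reads). Neither difference was tested, since each group has 1 sample and the pairs also differ in collection, in counting unit and in the 6-OHDA that both punched samples received. Microglia markers summed to 956 CPM on the infused side and 574 CPM on the contralateral side. In the punched pair the sums were 159 CPM after 6-OHDA then En2 and 320 CPM after 6-OHDA. The defining markers Tmem119, P2ry12 and Cx3cr1 stood at -0.08, -0.38 and 0.26 in the infusion pair. In the punched pair they stood at -3.07, -2.08 and -2.63. The part of microglia in either difference was not tested.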

How the results depend on the processing

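No paired test was possible because each group has 1 sample, so the infused and contralateral sides form only 1 pair. For the same reason no replicate could be left out. Of 142 member ratios recomputed with library totals, totals outside mitochondrial and ribosomal RNA genes, TMM factors, 2 reads added or other choices of transcript, 140 kept their side of the rule and, apart from Tlr3 in the En1+/- pair (-0.000156 against 0.11 with totals outside mitochondrial and ribosomal RNA genes), their direction. The other 2 were both Tlr4 in the infusion pair, at 0.99 with totals outside mitochondrial and ribosomal RNA genes and 0.49 with the sum over transcripts, against 1.09. Members under 20 reads in both libraries of a pair are counted among the 140. They could not pass the rule under other scaling or with 2 reads added, so for them keeping their side was fixed in advance. With no minimum count, 2 genes passed in the En1+/- pair (Tlr7 higher and Cd14 lower) in place of 1, and the median was 0.11 over 7 genes in that pair against 2.68 over 2, 1.32 over 10 in the infusion pair against 2.10 over 6, and 1.00 over 10 in the punched pair against 1.66 over 9. The En1+/- median was 1.11 with Tlr7 at its bound, 1.73 with 2 reads added and 0.96 over 3 genes with the sum over transcripts. Without a minimum, Myd88 and Ticam1 also passed as lower on the infused side. With a minimum of 100 reads no member was measured in either captured pair, so 0 passed in both and no median could be given, while in the punched pair the same 5 higher and 2 lower remained. With library totals the median over all genes was 0.70 against 0.10 in the En1+/- pair, with 82.8% against 58.7% of the genes past the rule higher, and 0.39 against 0.08 in the infusion pair, with 69.6% against 54.9%. No call among the 10 genes changed with it. Depth limits the captured pairs most, where Ly96, Myd88, Ticam1 and Irak3 stayed under 20 reads in every library.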

Other observations

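Genes whose 3 log2 ratios (En1+/- pair, infusion pair, punched pair) lay nearest to those of a member were sought by Euclidean distance among 9686 genes measured in every pair, for the 2 members measured in all 3. Nearest to Tlr3, whose ratios were 0.11, 0.39 and 1.86, were Adamts4, a protease gene, at a distance of 0.497, Anxa1, which encodes annexin A1, at 0.540, and Jun, a transcription factor gene, at 0.552. Nearest to Tlr7 were Gstm6 at 1.07, Nhlrc3 at 1.10 and Tbccd1 at 1.23, all with ratios near 0 in the punched pair (-0.25, -0.12 and -0.26) where Tlr7 stood at -1.08. The En1+/- ratio of Tlr7 rests on 0 reads in wild type. Likeness over 3 pairs of single libraries is a description of these libraries.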
